A study of Homo sapiens with 4 samples.

Results

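Tubulin isotypes were followed in human H1 cells at day 2 of hematopoietic differentiation. The 10 genes were taken by symbol and comprised 7 beta tubulins (TUBB, TUBB2A, TUBB2B, TUBB3, TUBB4A, TUBB4B and TUBB6) and 3 alpha tubulins (TUBA1A, TUBA1B and TUBA1C), out of 17894 genes listed in each library. The set was chosen by gene family with the FPKM of all libraries known. TUBB4A was selected on its rise in the LGR4-/- clones, the largest of the genes tested on the log2(FPKM+1) scale defined below. Every difference below is therefore given as a description without a test. The line H1, derived from a human embryo, is pluripotent. It was differentiated on mAGM-S3, a mouse stromal cell line, and the human cells were enriched by sorting for the surface antigen TRA-1-85.

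The series held 4 libraries of H1 cells, all collected at day 2. Of these, 1 library came from wild-type control cells, 1 from wild-type cells that received 20 ng/mL R-spondin2 during 1 day, the first of differentiation, and 2 from LGR4-/- cells with no R-spondin2 treatment in their labels. R-spondin2 is a secreted WNT agonist, and LGR4 is a cell-surface receptor that R-spondins bind. The LGR4-/- libraries are numbered 1 and 2 in their titles and are called clone 1 and clone 2 here. The sources used here do not say how LGR4 was disrupted, nor that the 2 libraries came from separately derived lines, although their column headers carry different names. Each wild-type condition had a single library. Levels are FPKM, the fragments mapped to a gene scaled for transcript length and for the size of the library. Differences are on the log2(FPKM+1) scale, which understates the change of low genes. A gene was called when it differed at least 2-fold on that scale, in the clones the same way in both.

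Microtubules are polymers of dimers that each hold an alpha and a beta tubulin. The beta isotypes are nearly alike in their folded body and differ mostly in the acidic carboxy-terminal tail, which lies on the outside of the microtubule and is read by motors, associated proteins and modifying enzymes. TUBB is the widely expressed class I isotype, TUBB2A and TUBB2B form class II, TUBB3 is the neuron-rich class III, TUBB4A and TUBB4B are classes IVa and IVb, and TUBB6 is class V. Cells also hold their tubulin messages in check through TTC5, which recognizes newly made tubulin at the ribosome and starts the decay of its message when free tubulin is plentiful.

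The ends of the 7 beta coding sequences are shown because they encode the tail that tells the isotypes apart, and because they show where reads of different isotypes look alike. Each line gives the last 75 bases of the coding sequence with its stop codon, 5′ to 3′, from GENCODE release 29 transcripts on GRCh38. Capitals mark bases that lie in no 12-base match to the coding sequence of another of the beta isotypes.
TUBB (chr6:30724323-30724397, plus strand): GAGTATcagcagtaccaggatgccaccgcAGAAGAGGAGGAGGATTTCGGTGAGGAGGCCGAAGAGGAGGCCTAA
TUBB2A (chr6:3153863-3153937, minus strand): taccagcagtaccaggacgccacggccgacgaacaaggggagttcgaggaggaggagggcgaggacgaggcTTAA
TUBB2B (chr6:3224751-3224825, minus strand): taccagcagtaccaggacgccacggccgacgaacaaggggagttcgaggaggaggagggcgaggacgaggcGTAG
TUBB3 (chr16:89935730-89935804, plus strand): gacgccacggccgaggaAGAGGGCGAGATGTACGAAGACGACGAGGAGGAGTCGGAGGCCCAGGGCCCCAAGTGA
TUBB4A (chr19:6495164-6495238, minus strand): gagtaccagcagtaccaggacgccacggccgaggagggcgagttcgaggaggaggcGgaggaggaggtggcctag
TUBB4B (chr9:137243482-137243556, plus strand): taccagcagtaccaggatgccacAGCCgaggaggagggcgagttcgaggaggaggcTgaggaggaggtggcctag
TUBB6 (chr18:12326056-12326130, plus strand): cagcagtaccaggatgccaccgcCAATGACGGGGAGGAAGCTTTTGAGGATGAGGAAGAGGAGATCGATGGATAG

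TUBB, TUBB3 and TUBB6 had 52, 58 and 52 bases of their own in this stretch. TUBB2A and TUBB2B had 4 each, all at the very end, and their whole coding sequences were 98.1% identical. TUBB4A had 1 base of its own, since its tail is shared in pieces with TUBB4B and the other isotypes, although its whole coding sequence was 87.4% identical to that of TUBB4B and 90.2% to that of TUBB2A. The 3 alpha coding sequences were 96.0% to 97.3% identical to each other. Of the 50-base windows of the TUBB2A transcript, 60.3% were also found in TUBB2B, and of the TUBB2B windows 47.3% were found in TUBB2A. For TUBA1B, 56.6% of such windows were found in another gene of the files, for TUBA1A 40.9% and for TUBA1C 25.1%. The values of these 5 genes therefore rest on how the authors' counting divided shared reads, and each is uncertain on its own. TUBB (0.105%), TUBB6 (0.993%), TUBB4A (5.99%), TUBB3 (7.88%) and TUBB4B (9.89%) shared few windows. At 100 bases TUBB4A, TUBB and TUBB6 shared none; the read length is not given in the sources used here.

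In the annotation, TUBB4A (NCBI gene 10382) lies on chromosome 19 at chr19:6494319-6502848, and TUBB2A (gene 7280, chr6:3153669-3157526) and TUBB2B (gene 347733, chr6:3224261-3231730) are close neighbors on chromosome 6. The 3 alpha genes lie together on chromosome 12, in the order TUBA1B (gene 10376, chr12:49127782-49131397), TUBA1A (gene 7846, chr12:49184796-49189324) and TUBA1C (gene 84790, chr12:49188736-49274603). The annotated ends of TUBA1A and TUBA1C overlap on opposite strands. Both the annotation and the sequences are on GRCh38, while the submitters' processing notes name hg19. The deposited files carry no coordinates.

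The depth was estimated from low FPKM, which step by the value of 1 read for a transcript of given length. It came to 8680000 to 8910000 reads in the 4 libraries. The disrupted gene itself, LGR4, had 21.8 FPKM in the control, 24.3 FPKM with R-spondin2, 7.40 FPKM in clone 1 and 13.95 FPKM in clone 2. Both clones kept some LGR4 RNA below the wild-type level. The summed FPKM of 10 pluripotent cell markers was 1643 in the control, 1342 with R-spondin2, and 2663 and 2457 in clones 1 and 2, and that of 10 mesoderm markers was 1160, 1517, 417.5 and 642.0. These markers differed in every comparison made below, and their part in the tubulin values was not tested. In bulk RNA, more cells of a type and more RNA per cell cannot be told apart.

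At day 2 the RNA of TUBA1B and TUBB stood highest of the single isotypes, and the other isotypes followed over a wide range. TUBA1B, a broadly expressed alpha tubulin, had the highest level of the 10 genes in every library, at 1306 FPKM in the control, 1312 FPKM with R-spondin2, 1268 FPKM in clone 1 and 1296 FPKM in clone 2. TUBB came next at 1187, 1174, 1099 and 1097 FPKM in the same order. TUBB2A and TUBB2B stood next among the beta isotypes, and their order was not fixed: TUBB2A was the higher in the control and with R-spondin2, and TUBB2B in both clones. The ratio of TUBB2B to TUBB2A was 0.919 in the control, 0.858 with R-spondin2, 1.18 in clone 1 and 1.09 in clone 2. TUBA1C, the other abundant alpha tubulin, lay between 357.1 and 425.7 FPKM, and TUBB4B between 256.7 and 358.5 FPKM. TUBB3, TUBB6 and TUBA1A lay between 90.7 and 136.6 FPKM in all libraries and changed places from library to library. TUBB4A, a beta tubulin best known from brain and from inherited disease of myelin, was the lowest of the 10 genes in every library.

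**Figure D1:**
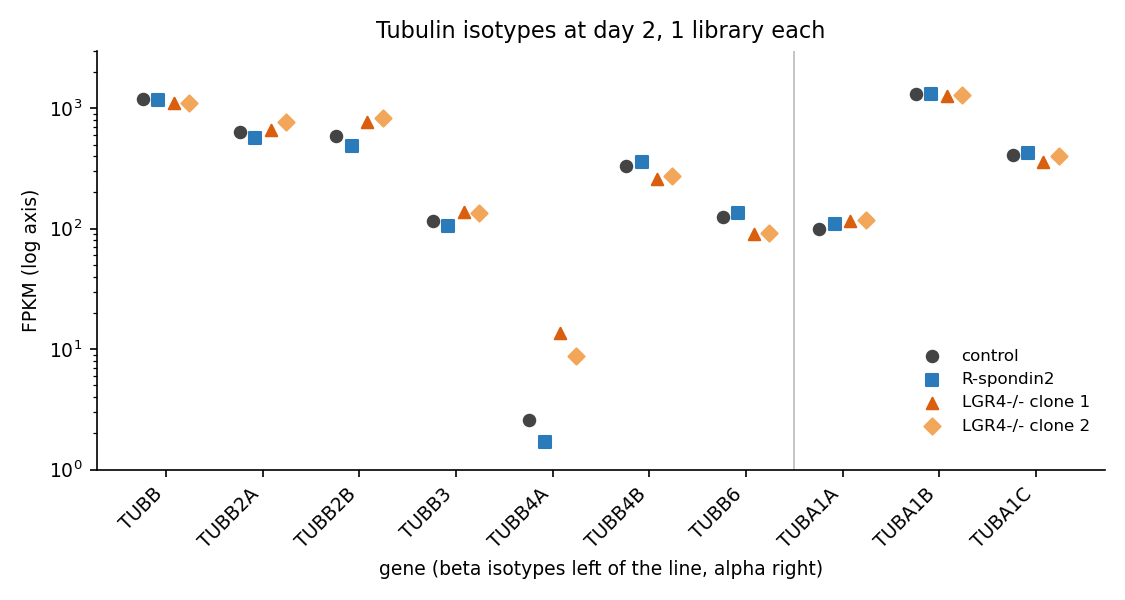
FPKM of the 10 tubulin isotypes on a log axis, with 1 point per library (control, R-spondin2 and LGR4-/- clones 1 and 2) and the beta isotypes to the left of the line. TUBB4A runs from 1.69 to 13.6 FPKM, and every other isotype stays above 90 FPKM in all 4 libraries.

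TUBB4A was the isotype that differed most between the libraries. It was at 2.57 FPKM in the control, 1.69 FPKM with R-spondin2, 13.6 FPKM in clone 1 and 8.73 FPKM in clone 2. Both clones lay above both wild-type libraries. The clone levels were 5.29 and 3.40 times that of the control, or 2.03 and 1.45 on the log2(FPKM+1) scale. The mean of 1.74 ranked 1 among the 12697 genes averaging 1 FPKM or more over the libraries, and this is the value for which the gene was chosen. All 10 isotypes passed that filter. The rank belongs to this scale. By plain FPKM ratio FEZF1, described below, rose more than TUBB4A in both clones, from 0.49 FPKM in the control. At the length of the full coding transcript, 2552 bases, the FPKM correspond to 58 reads in the control, 37 with R-spondin2, 309 in clone 1 and 196 in clone 2. The log2 ratio of clone 1 to control in these reads was 2.42, with a 95% interval of 2.01 to 2.85, and that of clone 2 was 1.78 (interval 1.35 to 2.23). If the reads came from the shortest annotated transcript of 545 bases, the counts would be 12, 8, 66 and 42, and the lower bounds 1.56 and 0.88. These exact binomial intervals cover counting error between libraries only, not the spread between cultures. They also leave out the uncertainty of dividing reads shared between genes. For TUBB4A in the clones they are no test, since the gene was chosen for this rise.

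Between the clones themselves TUBB4A was 1.56 times higher in clone 1 than in clone 2, a log2 ratio of -0.64 in implied reads for clone 2 over clone 1 (interval -0.90 to -0.37). The gap from the control to the nearer clone was 6.16 FPKM, against 4.86 FPKM between the clones. With R-spondin2 the level was 65.8% of the control, and at 58 and 37 reads no difference was detectable (log2 ratio -0.61, interval -1.25 to 0.01). On the log2(FPKM+1) scale that difference was -0.41, larger in size than those of all but 6.03% of the genes.

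Among all 10 isotypes, TUBB4A alone was called in the clones, and 0 were called lower. Over all genes tested, 0.236% were called higher in both clones and 1.08% lower, and nothing is read from the count of 1, since TUBB4A entered through this contrast. Of the 7 beta isotypes, 4 had a higher mean level in the clones than the control (TUBB4A, TUBB2B, TUBB3 and TUBB2A) and 3 a lower one (TUBB6, TUBB4B and TUBB). Among the 12697 genes tested, 6803 were higher and 5894 lower in the clones, which is the background for such counts in the lists below as well. The median difference of the 10 isotypes was 0.06, beside 0.02 over all genes tested.

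Of the class II isotypes, TUBB2B was higher in both clones than in the control, and TUBB2A by more than counting error in clone 2 only. TUBB2B was at 586.8 FPKM in the control, 485.0 FPKM with R-spondin2, 775.9 FPKM in clone 1 and 829.4 FPKM in clone 2. The clones lay highest and the R-spondin2 library lowest. The log2 differences from control were 0.40 and 0.50 in the clones, and the control was 189.1 FPKM below the nearer clone while the clones were 53.5 FPKM apart. TUBB2A was at 638.7, 565.4, 656.0 and 762.6 FPKM in the same order. Its clone 1 stood 0.04 above the control on the log2 scale, which was not detectable at this depth (interval in implied reads -0.0032 to 0.08). Its clone 2 stood 0.26 above (interval 0.22 to 0.30), so that the distance between the clones, 106.6 FPKM, exceeded the 17.3 FPKM from control to clone 1. Both intervals leave out the uncertainty of dividing reads shared with TUBB2B. With the pair summed, class II made up 41.0% of the beta FPKM in the control, 47.3% in clone 1 and 49.8% in clone 2. Summing lessens the uncertainty of dividing their shared reads. It does not remove it, since FPKM are per length and the transcripts differ in length (1595 and 2020 bases).

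TUBB3, widely used as a marker of neurons but also present in many proliferating cells, was at 115.7 FPKM in the control, 105.4 FPKM with R-spondin2, 136.6 FPKM in clone 1 and 134.8 FPKM in clone 2. Both clones were above the control by 0.24 and 0.22 on the log2 scale, and they were 1.80 FPKM apart. Of 12 neuron markers listed, 8 passed the filter on low values, and the 12 together summed to 43.3 FPKM in the control, 39.7 FPKM with R-spondin2, 54.3 FPKM in clone 1 and 54.6 FPKM in clone 2. Of the 8 that passed, 7 were higher and 1 lower in the clones, with a median of 0.37, from -0.74 for STMN2 to 0.58 for INA, a neurofilament partner. RBFOX3, a nuclear protein of mature neurons, was at 2.40 FPKM in the control and at 4.36 and 3.52 FPKM in clones 1 and 2. Below the filter, DCX, a protein of migrating neurons, was at 0.52, 1.13 and 0.91 FPKM in the same 3 libraries, and ELAVL3 was at or below 0.17 FPKM. Also below it, ELAVL4 was lower in the clones, at 0.50, 0.12 and 0.15 FPKM in those libraries, and SNAP25 was at 0.57, 0.69 and 0.41 FPKM. Of 10 neural progenitor markers, 5 passed, with 3 higher and 2 lower in the clones and a median of 0.18, from -0.17 for OTX2 to 0.41 for FABP7. The 10 summed to 139.7 FPKM in the control, 151.4 FPKM with R-spondin2, 141.7 FPKM in clone 1 and 136.1 FPKM in clone 2. SOX1 and PAX6, which did not pass, were at or below 0.03 and 0.47 FPKM. The part of neural cells in the TUBB3 values was not tested.

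The isotypes with lower levels in the clones were TUBB6, TUBB4B and TUBB. TUBB6 was at 124.5 FPKM in the control, 134.9 FPKM with R-spondin2, 90.7 FPKM in clone 1 and 92.2 FPKM in clone 2. The clones nearly coincided and lay 32.3 FPKM below the control, with log2 differences of -0.45 and -0.43. TUBB4B, a broadly expressed isotype that is also a main tubulin of cilia, was at 332.9 FPKM in the control, 358.5 FPKM with R-spondin2, 256.7 FPKM in clone 1 and 274.3 FPKM in clone 2. Its log2 differences were -0.37 and -0.28, at 4856 implied reads in the control and 3740 and 3942 in the clones. TUBB differed less, with -0.11 in each clone, and the clones were 1.63 FPKM apart.

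TUBB4A and TUBB4B, which end in nearly the same tail sequence shown above, thus stood on opposite sides of the control in the clones. The ratio of TUBB4B to TUBB4A was 129.5 in the control, 212.1 with R-spondin2, 18.9 in clone 1 and 31.4 in clone 2. Because TUBB4A is so low, the class IV sum followed TUBB4B and went from 11.2% of the beta FPKM in the control to 8.93% and 8.85% in the clones.

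Of the 3 alpha isotypes, 1 was higher in the clones and 2 were lower, and 0 were called. TUBA1A, the main alpha tubulin of developing neurons, was at 100.2 FPKM in the control, 108.6 FPKM with R-spondin2, 115.0 FPKM in clone 1 and 117.4 FPKM in clone 2, with log2 differences of 0.20 and 0.23 in the clones. TUBA1C was at 413.0, 425.7, 357.1 and 398.5 FPKM, and its clones were farther from each other (41.4 FPKM) than the control was from clone 2 (14.5 FPKM). TUBA1B differed from the control by -0.04 in clone 1 and -0.01 in clone 2. At 18939 implied reads in the control and 18508 in clone 2, the interval for clone 2 was -0.04 to 0.02, so that no difference was detectable beyond counting error. For clone 1, at 18367 implied reads, the interval was -0.07 to -0.01. Neither interval covers the dividing of reads that TUBA1B shares with other genes.

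In all, the control stood farther from the nearer clone than the clones stood from each other for 7 of the 10 isotypes, 6 of 7 beta and 1 of 3 alpha. The same held for 47.3% of all genes tested, and with 1 control library the distance that repeated controls would show is unknown. That background takes in genes of every level past the filter, while most of the isotypes are high. TUBB4A, chosen for its rise, is among the 7, so that nothing is read from the count. For the mean of the clones against control, the SD over the 671 genes averaging 100 FPKM or more was 0.27. TUBB2B, TUBB6 and TUBB4B lay beyond that SD. The other isotypes, apart from the low TUBB4A, lay within it.

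**Figure D2:**
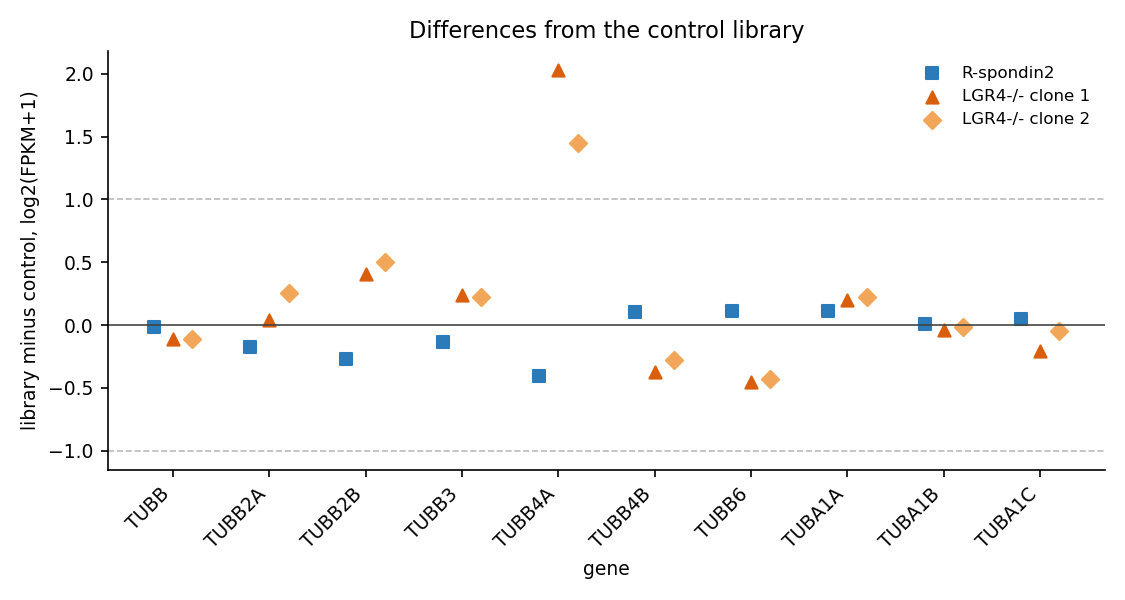
Difference of each library from the control in log2(FPKM+1) for the 10 isotypes, with 1 point for R-spondin2 and 1 for each LGR4-/- clone, all 3 against the same control library. The dashed lines mark 2-fold, which TUBB4A passes in both clones at 2.03 and 1.45 while the other points lie between -0.45 and 0.50.

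With R-spondin2 alone, the 10 isotypes stayed within 2-fold of the control: 0 were called, against 0.221% of all genes. The median difference was -0.005, beside -0.008 over all genes. Of the 7 beta isotypes, 5 were lower with R-spondin2 and 2 higher, and all 3 alpha isotypes were higher. The largest differences besides that of TUBB4A were in TUBB2B at -0.27 (10561 and 8503 implied reads, interval -0.32 to -0.23) and TUBB2A at -0.18 (interval -0.22 to -0.13). TUBB3 differed by -0.13, TUBB6 and TUBA1A each by 0.11, and TUBB4B by 0.11 (interval 0.05 to 0.16). For TUBA1B the interval was -0.02 to 0.04, and no difference was detectable. As a scale, the SD over the 671 genes averaging 100 FPKM or more was 0.13 between control and R-spondin2, and it was 0.14 between the clones. The class II pair lay beyond the SD between control and R-spondin2, and TUBB3 lay at it. The other isotypes, apart from TUBB4A, which is too low for this scale, lay within it. The R-spondin2 and clone differences share the control library, so that a high or low control value enters both with the same sign.

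Between the clones, 0 isotypes were called, against 0.252% of all genes. Clone 2 had the higher level in 7 isotypes and the lower in 3. The largest differences were in TUBB4A (-0.58 for clone 2 minus clone 1), TUBB2A (0.22) and TUBA1C (0.16).

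The total of the tubulin messages varied less than their make-up. The 7 beta isotypes summed to 2988 FPKM in the control, 2825 FPKM with R-spondin2, 3028 FPKM in clone 1 and 3199 FPKM in clone 2. The 3 alpha isotypes summed to 1820, 1846, 1740 and 1812 FPKM. The ratio of the beta to the alpha sum was 1.64 in the control, 1.53 with R-spondin2, and 1.74 and 1.77 in the clones. The 10 isotypes took 1.10%, 1.08%, 1.09% and 1.15% of the FPKM of their library.

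Within the beta sum the shares shifted from TUBB, TUBB4B and TUBB6 toward class II in the clones. TUBB held 39.7% in the control, 41.6% with R-spondin2, 36.3% in clone 1 and 34.3% in clone 2. TUBB2B held 19.6%, 17.2%, 25.6% and 25.9% in the same order. TUBB4B went from 11.1% in the control to 12.7% with R-spondin2 and to 8.48% and 8.57% in the clones, and TUBB6 from 4.17% to 4.77% and to 2.996% and 2.88%. The clones lay on the same side of the control for every beta share. TUBB4A, despite its rank, held only 0.086% of the beta FPKM in the control, 0.060% with R-spondin2, 0.449% in clone 1 and 0.273% in clone 2. Among the alpha isotypes TUBA1B kept between 71.1% and 72.9% in all libraries, and TUBA1A went from 5.51% in the control to 5.88% with R-spondin2 and to 6.61% and 6.48% in the clones.

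**Figure D3:**
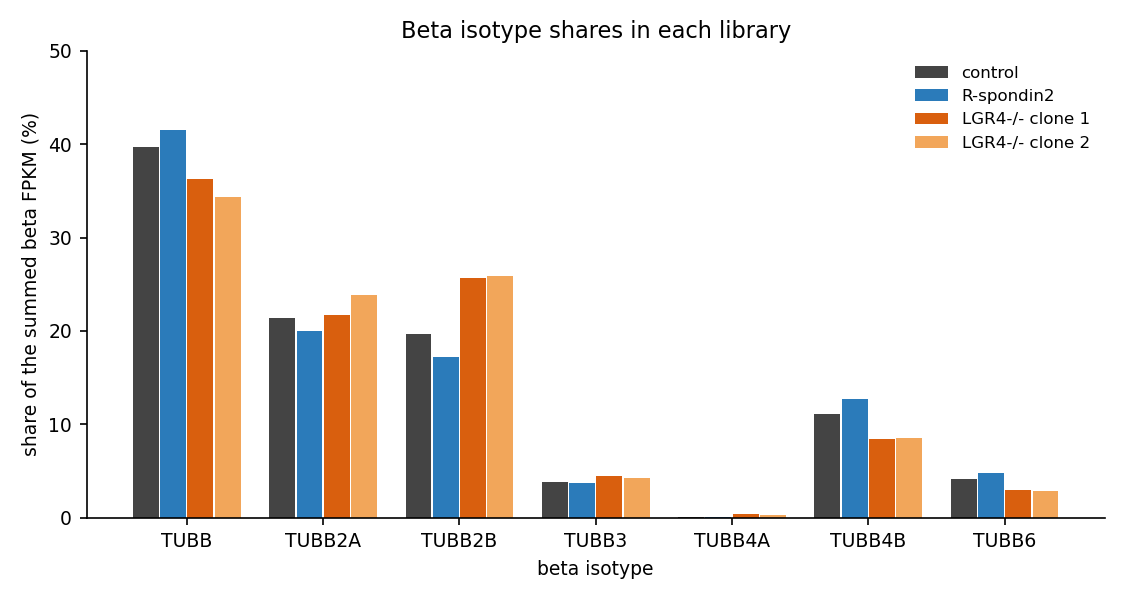
Share of each beta isotype in the summed FPKM of the 7 beta isotypes, in percent, with 1 bar per library. TUBB2B stands at 25.6% and 25.9% in the LGR4-/- clones against 19.6% in the control and 17.2% with R-spondin2, and TUBB4A is barely visible at 0.449% or less.

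The genes around the isotypes in the microtubule system are given as context for these shifts. None of those past the filter was called in the clones. Beside this, 0.236% of all genes tested were called higher and 1.08% lower, so that nothing is read from the absence of calls. Of 12 other tubulin genes in the files, 6 passed the filter and 0 were called in the clones. TUBB8 had the highest difference (0.48, at 0.69 FPKM in the control and 1.26 and 1.45 FPKM in the clones), and TUBG1, the gamma tubulin that nucleates microtubules, the lowest (-0.06). The 10 genes of the gamma-tubulin ring complex lay between -0.24 for MZT2B and 0.09 for CDK5RAP2. The 22 folding genes, which are the tubulin cofactors, prefoldin and the chaperonin that fold tubulin and actin, lay between -0.26 for the prefoldin subunit PFDN2 and 0.15 for the cofactor TBCD. TTC5 itself was at 8.81 FPKM in the control and 7.61 and 7.67 FPKM in the clones.

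Of the tubulin modifying enzymes, 15 of 24 passed the filter and 0 were called. VASH2, which removes the last tyrosine of alpha tubulin, was at 22.3 FPKM in the control, 17.4 FPKM with R-spondin2, 33.6 FPKM in clone 1 and 36.8 FPKM in clone 2, a mean difference of 0.63. The lowest was ATAT1, the alpha tubulin acetyltransferase, at -0.23. Of 30 microtubule-associated and end-binding genes, 24 passed and 0 were called, with 10 higher and 14 lower in the clones and a median of -0.01. MAP7, which brings kinesin to microtubules, was at 8.69 FPKM in the control and at 18.9 and 14.8 FPKM in clones 1 and 2 (0.87), and MAP1B, known for its part in axon growth, at 20.0, 12.8 and 15.2 FPKM (-0.49). The 11 severing and depolymerizing genes past the filter ran from -0.18 for KATNAL1 to 0.36 for KATNAL2. Of the 4 stathmins, which bind free tubulin, 3 passed; STMN1 was at 246.2 FPKM in the control and differed by 0.04.

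Among 14 actins and intermediate filament genes, 12 were lower and 2 higher in the clones, with a median of -0.15. VIM, the intermediate filament protein of mesenchymal cells, was the 1 gene called in this list, at 523.9 FPKM in the control, 670.5 FPKM with R-spondin2, 143.7 FPKM in clone 1 and 215.5 FPKM in clone 2. ACTB, the main cytoplasmic actin, was between 2886 and 3046 FPKM in all libraries, and ACTA1 had the highest difference of the list at 0.17.

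**Figure D4:**
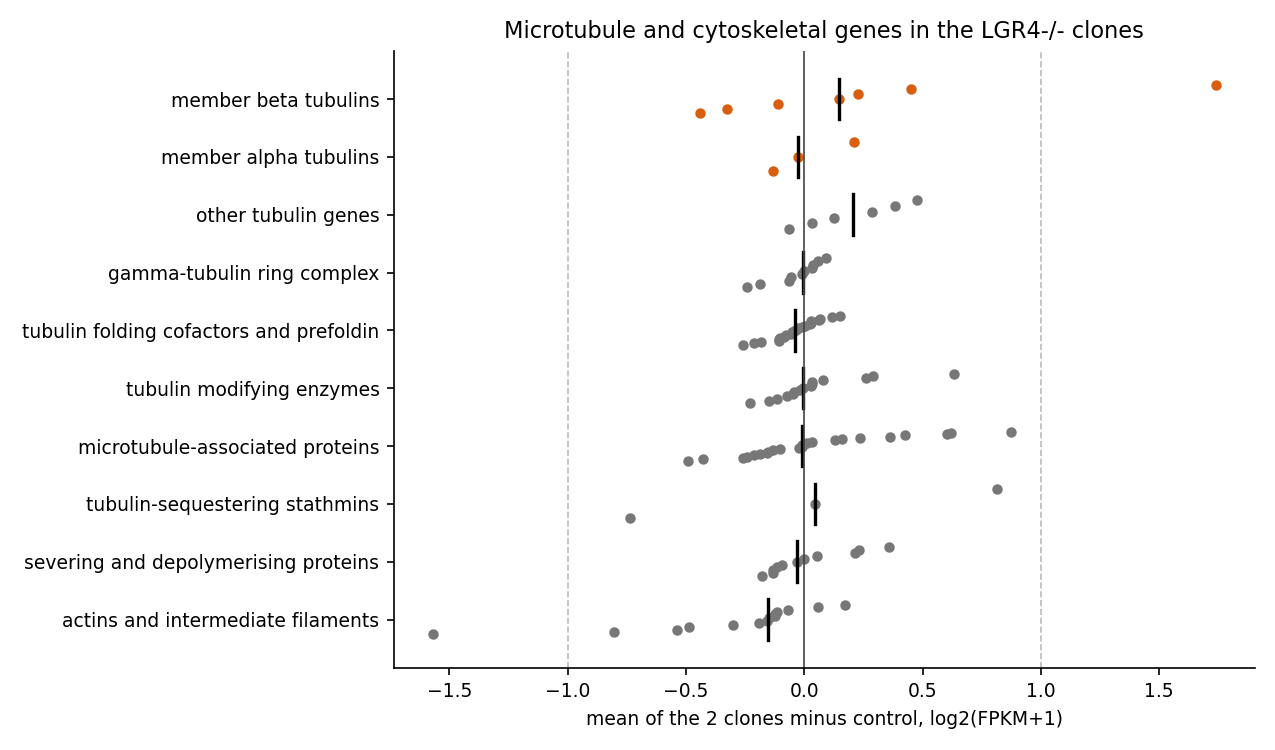
Mean difference of the 2 LGR4-/- clones from the control in log2(FPKM+1), with 1 point per gene past the filter and a bar at each list's median, for the tubulin isotypes (orange) and for the other microtubule and cytoskeletal lists (gray). TUBB4A at 1.74 and VIM at -1.57 are the points outside the dashed 2-fold lines.

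The genes whose 3 differences from control lay closest to those of TUBB4A, by Euclidean distance over R-spondin2, clone 1 and clone 2, were FEZF1, HAPLN3 and PRDM14. FEZF1, a transcription factor of the forebrain, was at 0.49, 0.06, 4.69 and 1.89 FPKM in control, R-spondin2, clone 1 and clone 2 (distance 0.51). HAPLN3, a hyaluronan link protein, was at 4.68, 3.30, 17.1 and 10.2 FPKM (distance 0.59), and PRDM14, a regulator of pluripotent cells, at 7.59, 3.59, 26.8 and 20.5 FPKM (distance 0.61). All 3 were higher in clone 1 than in clone 2 and lowest with R-spondin2, as TUBB4A was, which follows largely from choosing them by these same differences. With 4 libraries the likeness is a description only.

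The genes next to TUBB4A on chromosome 19 did not all move with it. On the side of lower coordinates, DENND1C was at 2.24 FPKM in the control, 1.42 FPKM with R-spondin2, 4.08 FPKM in clone 1 and 3.19 FPKM in clone 2. CRB3, a protein of epithelial polarity, had 6.66, 3.97, 12.8 and 11.2 FPKM in the same order. Both had their lowest level with R-spondin2 and their highest in clone 1. On the other side TNFSF9, a ligand of the tumor necrosis factor family, was at 4.34 and 4.46 FPKM in the wild-type libraries and at 2.20 and 1.42 FPKM in the clones, and CD70 stayed between 0.63 and 1.16 FPKM.

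Other cell types that use these isotypes were looked for by their markers. Of 8 oligodendrocyte markers, in whose lineage TUBB4A is abundant, OLIG1 was listed at 0 in all libraries and OLIG2 at no more than 0.04 FPKM. Of the 5 that passed, 5 were higher in the clones, with a median of 0.20. The 8 markers summed to 33.5 FPKM in the control, 34.7 FPKM with R-spondin2, 44.98 FPKM in clone 1 and 41.95 FPKM in clone 2. SOX10 had the lowest difference (0.04), and the part of such cells in the TUBB4A values was not tested. Of 8 markers of ciliated cells, which use TUBB4B, 1 passed the filter, and the 8 summed to 2.60 FPKM in the control, 2.43 FPKM with R-spondin2, 5.65 FPKM in clone 1 and 5.61 FPKM in clone 2. The one that passed, FOXJ1, a regulator of motile cilia, was at 1.00 FPKM in the control, 1.07 FPKM with R-spondin2 and 2.67 FPKM in each clone (0.88). The part of such cells in the TUBB4B values was not tested. The 10 stromal fibroblast markers summed to 239.9 FPKM in the control, 300.0 FPKM with R-spondin2, 217.6 FPKM in clone 1 and 249.5 FPKM in clone 2, with FAP listed at 0 throughout. LUM was the 1 marker of this list called lower in the clones, at 5.49, 9.11, 0.16 and 1.45 FPKM in the same order, and THY1 had the highest difference (0.42). The stromal line of the culture, mAGM-S3, is from mouse, while these values are of human genes. The part of stromal RNA in the tubulin values was not tested. Of the pluripotent markers, SOX2 and PRDM14 were called higher in the clones, LIN28B had the lowest difference (-0.16), and SOX2 was called lower with R-spondin2, at 5.58 FPKM against 19.9 FPKM in the control. Of the mesoderm markers, HAND1, MESP1 and APLNR were called lower in the clones, and all 10 were below the control, the least so KDR (-0.21). HAND1, MESP1 and LUM were also called higher in clone 2 than in clone 1.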

How the data were processed

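Per the file headers, the authors deposited FPKM, given to 2 decimals, for 17894 genes in each of 4 libraries of H1 cells sorted at day 2. The submitters' processing notes name BWA, Bowtie, RSEM and the build hg19, without roles or versions, and the read length is not given in the sources used here. Samples were grouped by their titles. The members and gene lists were chosen with earlier results of these data known.

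FPKM were compared as log2(FPKM+1) over the 12697 genes averaging 1 FPKM or more, and a difference of at least 2-fold was called. No test was run: each wild-type condition had 1 library, and the clones entered through the contrast that chose the members. Shares are FPKM over the summed FPKM of the beta or alpha members. The distance of the control from the clones was set beside the distance between the clones after the values had been seen. Named genes were all members, LGR4, the highest and lowest gene of each list with at least 4 genes past the filter, all called list genes, the 3 genes nearest to TUBB4A in pattern, and the genes beside TUBB4A in the RefSeq gene table (GRCh38.p14). The stathmins, TTC5, ACTB, TUBA4A, the tubulins below the filter and the defining markers were named in addition, after their values had been seen, and 1 gene that the rule names is not reported here.

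For depth, FPKM under 0.6 from transcripts under 1500 bases (GENCODE release 29 lengths) were converted to reads at each candidate depth, and the depth giving values nearest to integers was kept. Within 0.2 of a whole read lay 76.3% to 77.7% of 335 to 359 such values per library, against 35.9% to 43.9% with shuffled lengths. Shared windows of 50 and 100 bases, coding identity (edlib 1.3.9.post1) and coding ends were computed from the same transcripts. Calls and depth were tested on simulated data. The tools were Python 3.11.15, numpy 2.4.6, pandas 2.3.3, scipy 1.17.1 and matplotlib 3.10.9. Alternatives were a pseudocount of 0.1, no filter, a filter of 5 FPKM, median-ratio rescaling, a 1.5-fold threshold, each clone left out, and shares over all tubulin genes or with TUBB2A and TUBB2B summed.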

Additional observations from a re-analysis of the deposited data

How the results depend on the processing

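The number of isotypes called was 1 in the clones and 0 in the other comparisons under every alternative tried. The isotype called was TUBB4A, which was chosen for its rise in the clones, so that nothing is read from its staying called. Of 30 differences of single isotypes, 1 changed sign under an alternative, that of TUBB between the clones, which was near 0. The log2 difference of TUBB4A in the clones ran from 1.45 to 2.04, and its share of the beta FPKM from 0.273% to 0.449% when either clone was left out, beside 0.361% for both. The counts over all genes, which serve as background here, depended on the settings. With both clones against control, 30 genes were raised and 137 lowered; a pseudocount of 0.1 gave 116 and 230, a 1.5-fold threshold 332 and 392, a filter of 5 FPKM 18 raised, and leaving out either clone 42 to 161 raised and 149 to 287 lowered, with clone 1 alone giving the higher counts. With R-spondin2, 6 were raised and 22 lowered; the pseudocount of 0.1 gave 32 and 107, the 1.5-fold threshold 68 and 187, the filter of 5 FPKM 0 and 14, and no filter 12 raised. From clone 1 to clone 2, 22 were raised and 10 lowered; these settings gave 93 and 49 (pseudocount of 0.1), 172 and 136 (1.5-fold), 10 and 2 (filter of 5 FPKM) and, without a filter, 15 lowered. The lower pseudocount and threshold admit smaller or lower genes by construction; other causes were not tested. No paired analysis was possible because each wild-type condition had 1 library and the labels name no pairs. Depth limits TUBB4A most, with 58 implied reads in the control.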

Other observations

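The 6 tubulin genes that did not pass the filter were low in every library. TUBB1, the beta tubulin of platelets and megakaryocytes, was at 0.25 FPKM in the control, 0.26 FPKM with R-spondin2 and 0.32 FPKM in each clone. TUBA8 lay between 0.48 and 0.92 FPKM. Of the near-identical testis-type alpha genes, TUBA3D was at 0.27, 0.91, 0.59 and 0.62 FPKM in control, R-spondin2, clone 1 and clone 2, TUBA3C was at or below 0.31 FPKM and TUBA3E at or below 0.15 FPKM. TUBAL3 was listed at 0 in all 4 libraries. TUBA4A, which passed the filter, was at 14.3 FPKM in the control, 12.9 FPKM with R-spondin2, 18.8 FPKM in clone 1 and 18.9 FPKM in clone 2. The stathmins other than STMN1 differed in opposite directions, with STMN3 at 10.3, 6.05, 20.2 and 17.6 FPKM and STMN2 at 4.15, 3.54, 2.20 and 1.98 FPKM in the same order.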
